A study of Mus musculus with 96 samples.

Results

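Endothelial cells line every blood vessel, and a small set of genes is expressed mainly in them. Measured here were 9 such genes, Pecam1, Cdh5, Kdr, Flt1, Tek, Tie1, Vwf, Cldn5 and Emcn, together with Vegfa, the growth factor that acts on 2 of their products. The 10 genes were chosen by symbol from the 41575 symbols of the count table. The study sequenced RNA from 16 tissues of wild-type and Scx-/- mice, both aged 3 weeks, with 3 libraries of each genotype in each tissue, which gives 48 wild-type and 48 Scx-/- libraries. Scx encodes scleraxis, a transcription factor of tendon progenitors, and the Scx-/- label gives a whole-body loss with no tissue-restricted driver. The libraries were multiplexed by barcode before sequencing, and the labels do not say which libraries came from the same mouse. P-values therefore measure the spread between libraries, which may be partly technical.

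In blood vessels, VEGF-A, the product of Vegfa, is released by many cell types that surround the vessel. It binds the receptor tyrosine kinases KDR and FLT1 on endothelial cells, and KDR carries most of its signal for growth and permeability, while FLT1 binds it tightly and limits what reaches KDR. A parallel system consists of TEK, the receptor for angiopoietins, and its partner TIE1. PECAM1, VE-cadherin (Cdh5) and claudin-5 (Cldn5) hold neighbouring endothelial cells together, von Willebrand factor (Vwf) is stored in endothelial cells and platelets for clotting, and endomucin (Emcn) is a surface sialomucin of capillaries and veins.

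Total counts were 11244 to 1658192 per library with a median of 251640, and 16 of the 96 libraries held under 100000 counts. Levels are given as CPM, the count scaled to a common library total, so in a shallow library 1 count is a large CPM. Scx itself had 80 counts in 12 of the 48 wild-type libraries and 9 counts in 1 of the 48 libraries labelled Scx-/-, cartilage replicate 1. Tissue labels were checked against 6 defining genes each, and the libraries labelled adipose led in 0 of theirs. They carried a mean of 358432 CPM of 7 pancreatic acinar genes, and Lep was at 0 in them. The vascular libraries led in 1 of their 6 genes, Eln. The summed level of the 6 adipose genes was highest in vascular samples, as was that of 7 brown fat genes, with a mean of 8027 CPM (3924 to 14325 CPM) against 2588 CPM in heart, the next tissue. The study left vascular samples out of its later comparisons as contaminated by brown fat. Vascular values below are those of the libraries so labelled, and the part of brown fat in them was not tested. In every pair of replicates the counts differed by more than sampling noise.

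The members lie on 8 chromosomes in the mm10 build (GENCODE vM21 annotation), and all 10 are protein-coding. Pecam1 spans chr11:106654217-106750628 on the minus strand, Cdh5 chr8:104101625-104144511 on the plus strand and Vegfa chr17:46016993-46032369 on the minus strand. Kdr (chr5:75932827-75978458, minus strand) and Flt1 (chr5:147561604-147726011, minus strand) share a chromosome. So do Tek (chr4:94739289-94874976, plus strand) and Tie1 (chr4:118471191-118490061, minus strand). Vwf spans chr6:125546774-125686679, Cldn5 chr16:18776847-18778262 and Emcn chr3:137341067-137432185, each on the plus strand. Cdh5 alone overlaps another annotated gene, Gm29682, on the opposite strand. Whether counting used strand is not given in the sources used here, so reads of that pair cannot be told apart.

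Promoters of Kdr, Flt1, Tek, Emcn and Vegfa are shown because endothelial genes are known to be controlled by ETS factors, whose core motif is GGAA. RefSeq (GRCm38.p6) held promoter entries for 7 of the 10 members. Each line gives the 130 bases from 150 to 21 before the annotated start, 5′ to 3′ on the gene's strand, with GGAA on either strand in capitals.
Kdr (chr5:75978476-75978605): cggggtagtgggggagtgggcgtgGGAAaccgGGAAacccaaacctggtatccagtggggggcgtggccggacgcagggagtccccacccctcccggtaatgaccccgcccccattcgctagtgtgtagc
Flt1 (chr5:147726032-147726161): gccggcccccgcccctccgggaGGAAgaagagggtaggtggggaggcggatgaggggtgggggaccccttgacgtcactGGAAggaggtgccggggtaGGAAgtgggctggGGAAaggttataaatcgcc
Tek (chr4:94739139-94739268): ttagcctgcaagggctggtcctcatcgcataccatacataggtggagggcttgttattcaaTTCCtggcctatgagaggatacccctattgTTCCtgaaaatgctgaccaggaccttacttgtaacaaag
Emcn (chr3:137340928-137341057): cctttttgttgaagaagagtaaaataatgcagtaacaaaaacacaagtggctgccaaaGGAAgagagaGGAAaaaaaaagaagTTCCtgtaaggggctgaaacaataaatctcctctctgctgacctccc
Vegfa (chr17:46032398-46032527): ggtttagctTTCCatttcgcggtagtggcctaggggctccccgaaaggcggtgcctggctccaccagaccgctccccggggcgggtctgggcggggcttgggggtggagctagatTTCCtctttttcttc

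GGAA occurred 4 times in the Flt1 window, 3 times in that of Emcn and 2 times in each of the Kdr, Tek and Vegfa windows. Of the windows not printed, Tie1 held 2, a second Vegfa entry 1 and Cldn5 0. It is a common motif, present in 76% of 32851 RefSeq promoter windows of the same length. The GC box GGGCGG, read on both strands, occurred 2 times in the Vegfa window and 1 time each in those of Kdr and Flt1, against 25.1% of all windows with at least 1. The hypoxia response core ACGTG occurred in none of the 5 windows and in 9.61% of all windows. A match is a description of the letters and does not show binding.

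All members but 1 were detected. Cldn5, the tight junction claudin of brain vessels, was listed at 0 in all 96 libraries, although 6324607 counts came from cortex alone. At that pooled depth a count of 0 allows up to 0.474 CPM in cortex. Of 23 claudin symbols in the table, 5 were at 0 in every library. Sftpb and Ager, abundant genes of lung epithelium, were at 0 in lung, and Pf4 and Ppbp, abundant in platelets, were at 0 in all libraries. The zeros of Cldn5 are therefore not read as absence of its RNA, and Cldn5 was left out of what follows. Counts of the other 9 genes over all libraries ranged from 188 for Kdr, in 31 libraries, to 2900 for Vegfa, in 88 libraries. Cdh5 had a count in 85 libraries and Pecam1 in 75. Kdr was at 0 in all 6 libraries of cartilage, hippocampus, intestine, rectum and spleen, and Tek in those of intestine.

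**Figure D1:**
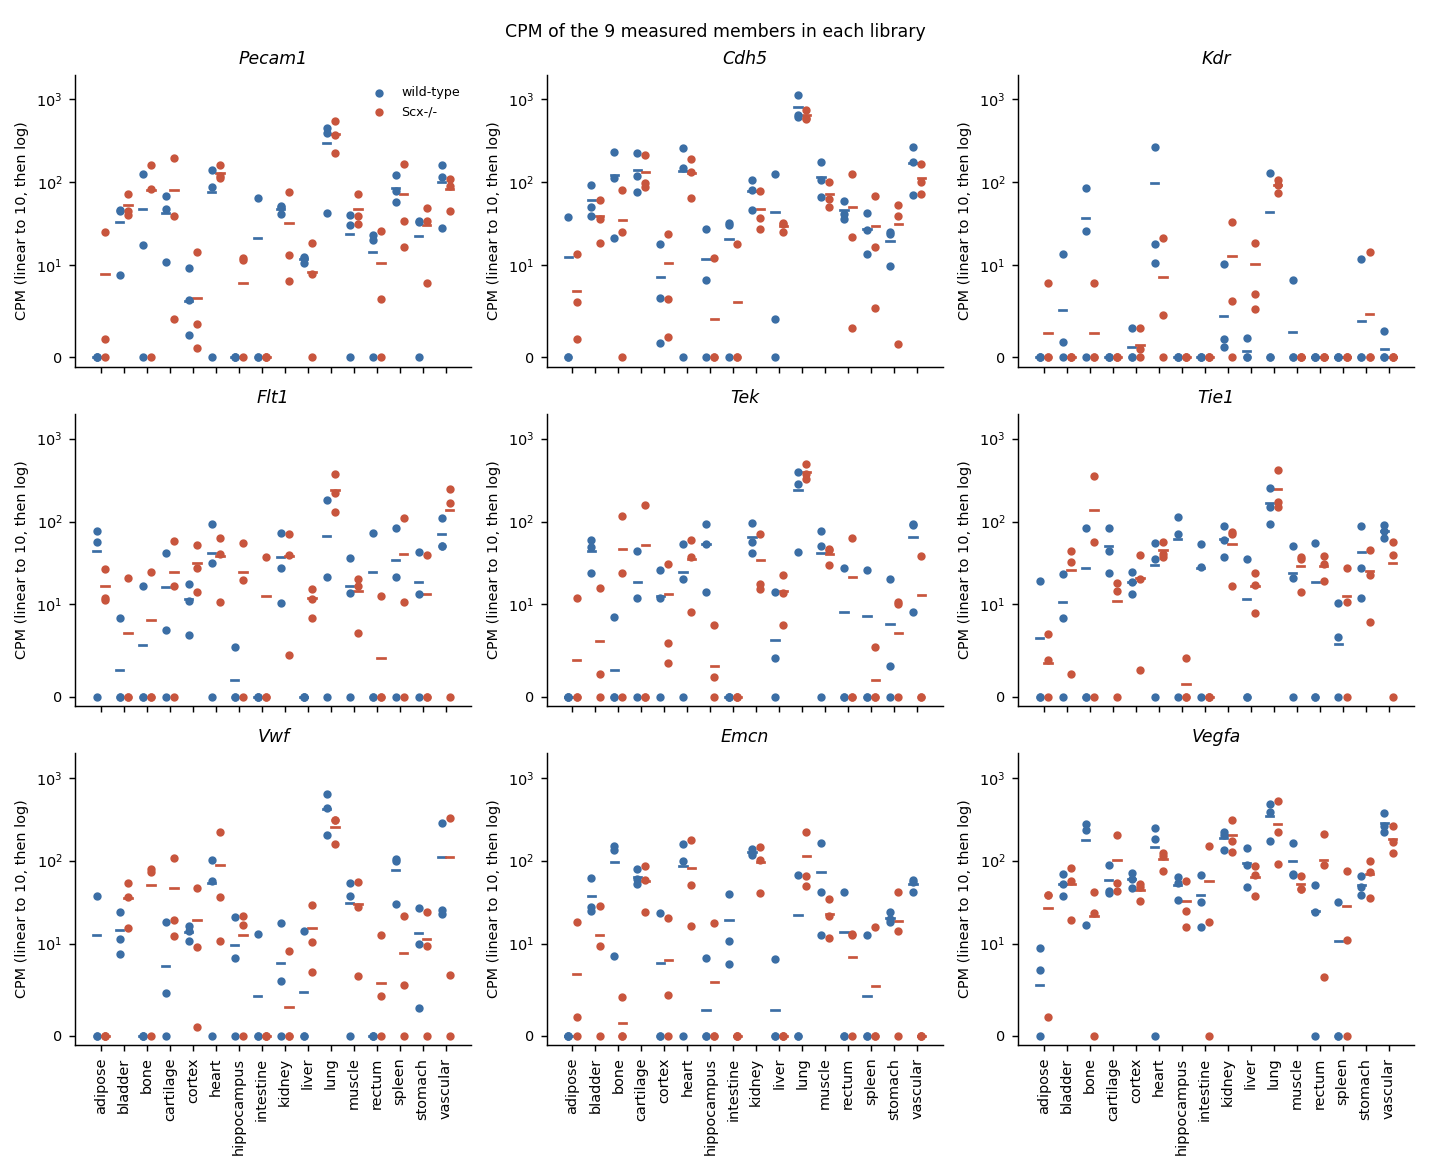
CPM of each of the 9 detected members (panels) in every library, by tissue, with wild-type in blue, Scx-/- in red and a bar at each group's mean of 3. The vertical axis is linear up to 10 CPM and logarithmic above. The lung libraries of Cdh5 lie between 587 and 1143 CPM, above every library of the other tissues.

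Lung had the highest mean of 8 of the 9 detected members over both genotypes. It led for all 9 among Scx-/- libraries and for 6 of 9 among wild-type ones. In wild-type libraries heart led for Kdr (98.6 against 43.9 CPM), vascular samples for Flt1 (70.4 against 67.6 CPM) and kidney for Emcn. The heart mean of Kdr rests on 1 library at 267 CPM from 3 counts. Pooled over the wild-type group, Kdr was 19.1 CPM in heart and 102 CPM in lung. Tissues were compared in pairs in 1 edgeR quasi-likelihood fit over all 96 libraries, with tissue and genotype as terms and Benjamini-Hochberg adjustment over 22493 genes. A gene was called high in a tissue if it exceeded at least 10 of the 15 other tissues at an adjusted p under 0.05. By that rule 7 of the 9 were high in lung, namely Pecam1, Cdh5, Kdr, Flt1, Tek, Tie1 and Vwf, where 1.6% of all genes were. The summed level of the endothelial members was 1305 to 3196 CPM in the lung libraries, and the highest library of any other tissue, a heart library, reached 907 CPM. In bulk tissue, a larger share of endothelial cells and more RNA per cell cannot be told apart. Without the replicate 1 libraries of all tissues the number fell to 2, Cdh5 and Tek, and without the replicate 3 libraries to 4, Cdh5, Tek, Tie1 and Vwf. The wild-type lung replicates 2 and 3 held 46732 and 53197 counts. Without the libraries under 100000 counts, 7 were high in lung.

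Among the junction genes, Cdh5 separated lung most fully. Wild-type lung held 1143, 621 and 658 CPM, and Scx-/- lung held 587, 593 and 755 CPM. Every one of these 6 libraries lay above all 90 libraries of the other tissues. The mean was 726 ± 213 CPM (SD, n = 6), and vascular samples followed at 143 ± 76.0 CPM. The fitted log2 difference from vascular samples was 2.12 (SE 0.54, adjusted p = 0.00395), and lung exceeded 15 of 15 other tissues. Pecam1, an adhesion molecule that platelets and leukocytes carry too, stood at 395, 42.8 and 451 CPM in wild-type lung and at 545, 378 and 224 CPM in Scx-/- lung. The value of 42.8 CPM rests on 2 counts. Pecam1 in lung exceeded 13 tissues, and the differences from heart (log2 1.04, SE 0.57, adjusted p = 0.407) and from vascular samples (log2 1.70, SE 0.59, adjusted p = 0.0727) did not pass the test. Pecam1 was low in the brain, at 6.27 ± 5.09 CPM in cortex and 4.02 ± 6.24 CPM in hippocampus (SD, n = 6 each). It was lower there than in 10 other tissues each, a call that 1.81% of genes met in cortex and 1.86% in hippocampus.

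The VEGF receptors were sparser. Kdr, the main signalling receptor, stood at 132, 0 and 0 CPM in wild-type lung and at 107, 74.7 and 93.2 CPM in Scx-/- lung. The libraries at 0 were the shallow ones, and the other 4 held 10 to 45 counts each. Lung exceeded 12 of 15 other tissues for Kdr. Heart was second at 53.6 ± 105 CPM (SD, n = 6), of which 1 library of 11244 counts gave 267 CPM from 3 counts. Among libraries of at least 100000 counts, lung stood at 102 CPM and the second tissue, bone, at 11.4 CPM. Flt1, the decoy-like receptor, stood at 181, 21.4 and 0 CPM in wild-type and at 372, 132 and 224 CPM in Scx-/- lung. The ranges of the genotypes overlapped, and the fitted log2 difference of 1.61 (SE 0.99, adjusted p = 0.741) did not pass the test. Vascular samples were second for Flt1 at 104 ± 90.4 CPM, and lung exceeded 10 tissues.

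Of the Tie receptors, lung exceeded more tissues by the test for Tek, while library ranges separated lung more fully for Tie1. For Tek, wild-type lung held 398, 42.8 and 282 CPM and Scx-/- lung 322, 378 and 494 CPM. The next tissue, kidney, had a mean of 49.6 ± 31.4 CPM (SD, n = 6), and lung exceeded all 15 other tissues by the test (against kidney, log2 2.37, SE 0.59, adjusted p = 0.0013). Tie1 stood at 251, 150 and 94.0 CPM in wild-type and at 413, 171 and 149 CPM in Scx-/- lung. The lung libraries of Tie1 lay wholly above those of 13 tissues, against 6 for Tek. By the test it exceeded 10 tissues, and bone, second at 82.5 ± 138 CPM, was not among them. The bone mean rests on 1 library at 355 CPM, with 15 counts, while 3 of its 6 libraries were at 0.

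Vwf, the clotting glycoprotein, stood at 629, 428 and 207 CPM in wild-type lung and at 157, 308 and 308 CPM in Scx-/- lung. All 6 lay above every library of 13 other tissues. Kidney was low at 5.49 ± 7.17 CPM although its libraries were deep, and the log2 difference of lung from kidney was 5.36 (SE 0.74, adjusted p = 4.95e-11). Vwf is also a gene of megakaryocytes, the platelet precursors. The summed level of 13 megakaryocyte and platelet genes was highest in spleen, with a mean of 393 CPM, and was 84.1 CPM in lung (0 to 168 CPM over the 6 libraries). Of those 13 genes, Pf4, Ppbp, Gp1ba and Gp1bb were at 0 in all libraries. Their part in the Vwf level was not tested.

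Kidney led for Emcn over both genotypes, at 122, 118 and 138 CPM in wild-type and at 145, 101 and 41.2 CPM in Scx-/- libraries, and exceeded 10 other tissues, a call that 3.33% of all genes met in kidney. Heart followed at 83.4 ± 73.5 CPM and lung at 67.7 ± 82.5 CPM (SD, n = 6 each). Lung was eighth among wild-type tissues at 22.4 CPM, with both shallow libraries at 0, and first among Scx-/- tissues at 113 CPM against 96 CPM in kidney. Among libraries of at least 100000 counts the means were 111 CPM in kidney and 102 CPM in lung. The difference of lung from kidney did not pass the test (log2 -0.61, SE 0.62, adjusted p = 0.802). Liver was lowest with 1 of 6 libraries above 0, at a mean of 1.38 CPM.

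**Figure D2:**
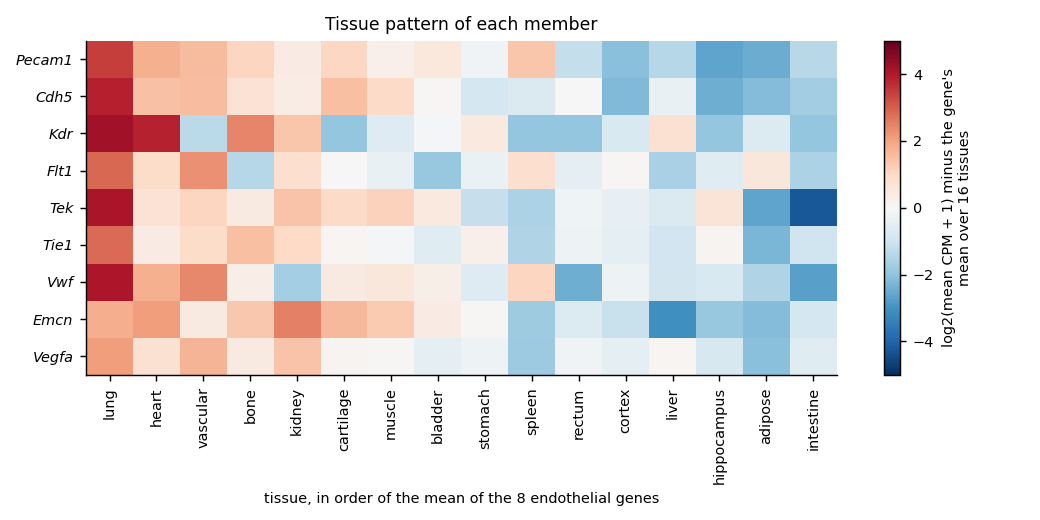
Tissue pattern of each detected member, as log2(mean CPM + 1) of 6 libraries minus the gene's mean over the 16 tissues, in red where higher and in blue where lower. Tissues run from the highest mean of the 8 endothelial genes, lung at 3.39, to the lowest, intestine at -1.94.

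Below lung, neighbouring tissues in the order were not separated. For every detected member but Cdh5, the ranges of all 15 neighbouring pairs overlapped, and for Cdh5 14 of 15 did. Averaged over the 8 endothelial genes, the place in the order was 1.25 for lung, 3.38 for heart, 4.38 for vascular samples, 5.38 for kidney and 6.25 for bone. The last places were 11.9 for hippocampus, 12.0 for liver, 12.9 for adipose samples and 13.5 for intestine. Single genes departed from this order, with Tie1 second in bone and Vwf at 5.49 CPM in kidney.

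Other genes of vessels were counted in the same fit. Of 30 further endothelial genes, 18 were high in lung by the same rule, among them Adgrf5, Cd93, Egfl7, Epas1 and Cav1. Their summed level was 10935 to 13262 CPM in lung, and vascular samples were second with a mean of 2335 CPM. Of 7 further VEGF ligands and receptors, Vegfd and the coreceptor Nrp1 were high in lung. Among the Tie ligands and regulators, 5 of 6 were tested, and Angpt1, the main activating ligand of TEK, and Ptprb, a phosphatase that dampens TEK, were high in lung. Of 10 genes of lung capillaries 6 were high in lung, as were all 5 tested genes of alveolar type 1 epithelium. None of 12 mural cell genes and 20 hypoxia target genes was, which at the 1.6% of all genes is near the background. Leukocyte genes were second highest in lung, with a summed mean of 1297 CPM for 10 genes against 2519 CPM in spleen, and 2 of 9 tested, Lyz2 and Itgal, were high there. Whether leukocytes contributed to Pecam1 was not tested.

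Vegfa is made by epithelium, muscle and other cells around vessels rather than by endothelium alone, and it was the most widely detected member. Wild-type lung held 389, 171 and 489 CPM and Scx-/- lung 90.9, 220 and 522 CPM, with overlapping ranges. Mean levels over 6 libraries were 314 ± 178 CPM in lung, 235 ± 87.0 CPM in vascular samples, 196 ± 68.4 CPM in kidney and 124 ± 86.0 CPM in heart (SD). The lowest were 19.7 ± 29.8 CPM in spleen and 16.1 ± 18 CPM in adipose samples. Lung exceeded 8 tissues, which is short of the rule, and this count depended on the setting. It was 12 with RLE scaling and 11 with library totals, but 3 without the replicate 3 libraries, 5 without the replicate 1 libraries and 7 without libraries under 100000 counts. The log2 differences of lung from vascular samples (0.17, SE 0.53) and from kidney (0.25, SE 0.52) did not pass the test (adjusted p = 1 for both).

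Over the 16 tissues, the Vegfa profile followed the mean of the 8 endothelial genes with a Pearson r of 0.815, and of 0.749 over the 15 tissues without lung. These are descriptions: each point is a mean of 6 libraries, and both values of a point share the libraries and their depth. Among single members, Vegfa was most like Tie1 (r = 0.880) and least like Flt1 (r = 0.459). The 28 pairs of endothelial genes had a median r of 0.626, from 0.288 for Kdr with Flt1 to 0.898 for Pecam1 with Cdh5, and a median of 0.466 without lung. The balance of ligand to endothelial genes differed widely. Over both genotypes Vegfa had 0.0937 counts for each endothelial count in spleen, 0.123 in lung, 0.496 in kidney, 0.544 in cortex and 0.754 in liver. The order was not the same in both genotypes. In wild-type libraries the ratios were 0.0649, 0.134, 0.453, 0.768 and 1.11 in these tissues, and in Scx-/- libraries 0.16, 0.109, 0.641, 0.399 and 0.624, and 1 library held all 15 Vegfa counts of wild-type spleen.

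**Figure D3:**
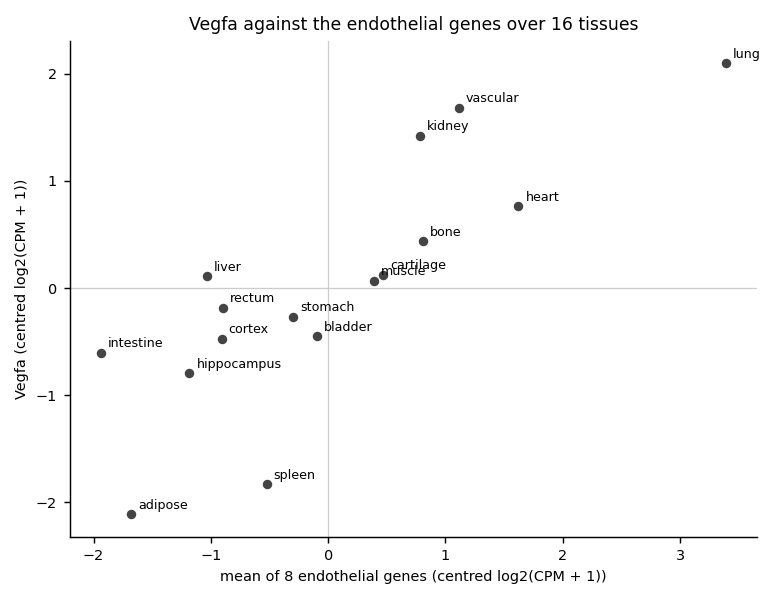
Vegfa (vertical axis) against the mean of the 8 endothelial genes (horizontal axis) over 16 tissues, both as log2(mean CPM + 1) minus the mean over tissues. Lung lies at the top right at 3.39 and 2.10, kidney and liver lie high on the Vegfa axis for their endothelial level, and spleen lies low.

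Genes whose tissue profile was most like the endothelial mean were ranked by Pearson r over the 16 tissue means, among 11987 genes with at least 10 CPM in 1 tissue and a count in 24 libraries. The first 10 were Adgrf5 (r = 0.942), Cd93, Egfl7, Esam, Ushbp1, Podxl, Adamts10, Ptprb, Ramp2 and Epas1 (r = 0.864). All 10 were highest in lung, where the profile used for the ranking also peaks. Without lung, their r lay between 0.743 for Epas1 and 0.895 for Adgrf5. Of 27 further endothelial genes that could be ranked, 25 had an r over 0.5, as did 9.03% of all genes ranked, and Plvap (r = 0.422) and Ets1 (r = 0.499) did not. Most like Vegfa were Sod3 (r = 0.906), Amotl2, Dag1, Dlc1 and Nrp1 (r = 0.835).

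The genotypes were then compared within each tissue, with edgeR's quasi-likelihood test and Benjamini-Hochberg adjustment over all genes of that tissue. Of 138 member and tissue pairs tested, 0 had an adjusted p under 0.05, where 0.0914% of all pairs of a gene and a tissue did. The smallest adjusted p was 0.614. By DESeq2 the count was also 0, but some pairs had no adjusted p there and could not be called. Among these were all detected members in bladder and in stomach, and most of them in kidney and liver. At an unadjusted p under 0.05 there were 3 pairs by edgeR and 6 by DESeq2. At the thresholds the study used, an unadjusted p under 0.05 and a log2 change beyond 1, edgeR called the same 3 pairs, or 2.17% against 3.71% of all pairs. DESeq2, the tool of the study, called 6, or 4.35% against 3.27% of all pairs, so both shares lay near their background. Emcn in vascular samples and Tie1 in hippocampus were called by both tools, Flt1 in liver by edgeR alone, and Tek in bladder, Tek in hippocampus, Emcn in bone and Vegfa in bone by DESeq2 alone. Groups did not overlap in 11 pairs, 9 lower and 2 higher in Scx-/- libraries, which is 7.97% against 7.96% of all pairs.

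The 3 pairs that edgeR put past these thresholds rest on few counts. Emcn in vascular samples was 42.3, 58.2 and 55.0 CPM in wild-type and 0, 0 and 0 CPM in Scx-/- libraries, with 36 counts against 0. Pooled over each group it was at least 5.26-fold lower, taking 3 counts over the Scx-/- group as the floor. The adjusted p was 0.672, and the 30 further endothelial genes summed to 2280 ± 223 CPM in wild-type and 2391 ± 641 CPM in Scx-/- vascular samples (SD, n = 3 each). Of the 9 members there, 8 had a fitted difference below 0 and 1 above, and none passed the adjusted test. The endothelial median was -1.28 on the log2 scale against -0.51 for all genes. The wild-type vascular libraries held 154625 to 354795 counts and the Scx-/- ones 77132 to 152689, and the part of depth in these medians was not tested. Flt1 in liver was 0 CPM in the 3 wild-type libraries and 11.7, 8.51 and 15.5 CPM in Scx-/- libraries, or at least 4.0-fold higher by the same floor (adjusted p = 0.746). Kdr in liver showed the same order, at 2.08, 0 and 0 CPM against 5.21, 18.7 and 6.90 CPM (log2 3.38, SE 2.60, adjusted p = 0.764). Of the 9 members in liver, 5 had a fitted difference above 0 and 4 below. The Scx-/- liver libraries held 580110 to 768443 counts and the wild-type ones 245271 to 481409. Tie1 in hippocampus was 0, 70.4 and 112 CPM in wild-type and 4.14, 0 and 0 CPM in Scx-/- libraries (log2 -4.83, SE 2.15, adjusted p = 0.762), and these ranges overlapped.

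The other pairs without overlap included both Tie receptors. Tek in hippocampus was 92.8, 54.1 and 14.0 CPM in wild-type against 2.07, 7.82 and 0 CPM in Scx-/- libraries (log2 -3.59, SE 2.06, adjusted p = 0.762). Of the 8 members tested in hippocampus, 4 had a fitted difference above 0 and 4 below. Tek in bladder was 23.8, 50 and 59.5 against 2.42, 15.6 and 0 CPM (log2 -2.84, SE 1.5, adjusted p = 0.804). Without overlap, Tie1 values were also below the wild-type ones in the Scx-/- libraries of cartilage and vascular samples, Vwf in those of spleen, Emcn in those of bone, and Vegfa in those of muscle. The last 2 gaps were narrow. Emcn in bone was at least 8.67 CPM in wild-type and at most 4.16 CPM in Scx-/- libraries, which held 1 Emcn count in all. The nearest Vegfa values in muscle were 66.5 and 66.0 CPM, and the highest wild-type value, 164 CPM, rests on 5 counts. For Emcn in intestine, 9 wild-type counts stood against 0, but 3 counts in the Scx-/- group would be 26.9 CPM, above the wild-type level of 14.8 CPM, so a lower level was not detectable at this depth. In cartilage, the library labelled Scx-/- with 9 Scx counts held 0 Tie1 counts, and the other 2 Scx-/- libraries, at 14.6 and 18.1 CPM, also lay below the lowest wild-type value of 24.2 CPM. None of these differences passed the test.

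Bone was of separate interest, because the study names Vegfa among the genes lower in Scx-/- bone. That choice was made on these libraries and the values here are no independent evidence of it. Vegfa is a stimulus to vessel ingrowth and osteoblast differentiation in growing bone. It stood at 234, 16.7 and 276 CPM in wild-type bone, from 27, 1 and 13 counts, and at 41.6, 0 and 23.7 CPM in Scx-/- bone, from 10, 0 and 1 counts. The Scx-/- libraries were lower than 2 of the 3 wild-type ones and overlapped the other. The fitted log2 difference was -2.76 (SE 1.76, adjusted p = 0.636 by edgeR's quasi-likelihood test). DESeq2 gave -3.05 with an adjusted p of 0.993. At the study's unadjusted thresholds Vegfa in bone was among the 6 member and tissue pairs that DESeq2 called, and it was not among the 3 that edgeR called. Of 12344 genes tested in bone, 0 had an adjusted p under 0.05.

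The endothelial genes of bone did not move one way. Emcn, which marks the capillary type tied to bone growth, was 8.67, 134 and 149 CPM in wild-type and 4.16, 0 and 0 CPM in Scx-/- bone (log2 -4.67, SE 2.55, adjusted p = 0.636). Vwf was 0 CPM in all 3 wild-type libraries and 79.0, 72.4 and 0 CPM in Scx-/- bone, and its adjusted p was also 0.636. Tek, Tie1, Pecam1 and Flt1 had higher means and Cdh5 and Kdr lower means in Scx-/- bone, with adjusted p from 0.636 to 0.916. The summed endothelial level was 341 ± 152 CPM in wild-type and 363 ± 26.4 CPM in Scx-/- bone (SD, n = 3 each). Of the 6 bone libraries, 3 held under 100000 counts. The 20 hypoxia target genes summed to 2594 ± 1507 CPM in wild-type and 2137 ± 404 CPM in Scx-/- bone.

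**Figure D4:**
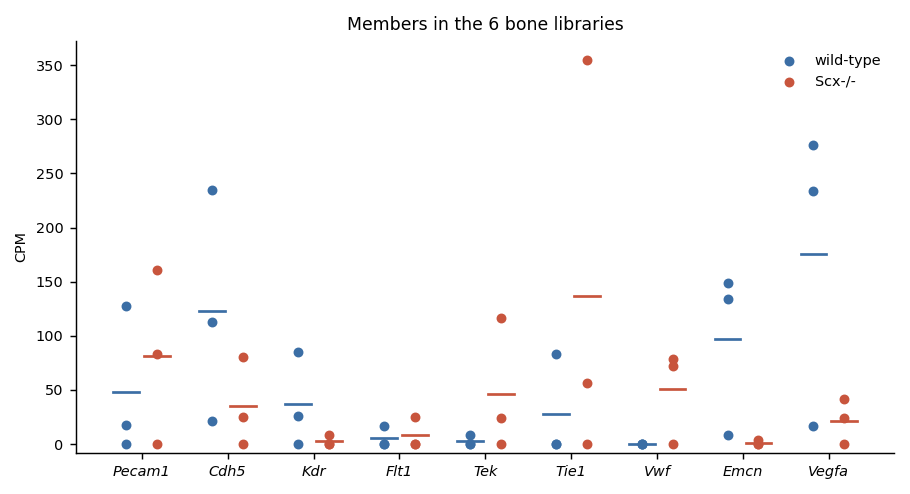
CPM of the 9 detected members in the 6 bone libraries, wild-type in blue and Scx-/- in red, with a bar at each mean of 3. Vegfa lies at 16.7 to 276 CPM in wild-type and 0 to 41.6 CPM in Scx-/- bone, and the ranges overlap.

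Over all 16 tissues at once, 0 of 9 members differed between genotypes at an adjusted p under 0.05, where 0.485% of 22493 genes did. The count was also 0 by DESeq2, which gave no adjusted p for Kdr. Cdh5 had the lowest unadjusted p of the members by edgeR, 0.0461, with a log2 difference of -0.46 (SE 0.23, adjusted p = 0.5995). Its mean was lower in Scx-/- libraries in 12 of 16 tissues. The Cdh5 difference was -0.15 without the replicate 3 libraries. Emcn followed at -0.55 (SE 0.29, adjusted p = 0.646), with a lower mean in 11 of 16 tissues, and lay between -0.99 and -0.18 when 1 replicate of every tissue was left out. Flt1 stood at 0.35 (SE 0.29), with a higher mean in 11 of 16 tissues, and lay between 0.08 and 0.96 in the same way. Pecam1 stood at 0.26 (SE 0.25), with a higher mean in 10 of 16 tissues, and Vegfa at -0.13 (SE 0.21). Both Pecam1 and Vegfa changed sign when 1 replicate of every tissue was left out. How often other genes leaned 1 way in as many tissues was not counted. The median over the 8 endothelial genes was -0.07 on the log2 scale, and that over all genes was 0.03. The test of whether a genotype difference varied with tissue called 0 of 9 members in edgeR, with 0 at an unadjusted p under 0.05, where 0.0669% of 13459 genes were called. This does not show that the differences were alike across tissues. Tek had the lowest p of the interaction test (adjusted p = 0.798).

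**Figure D5:**
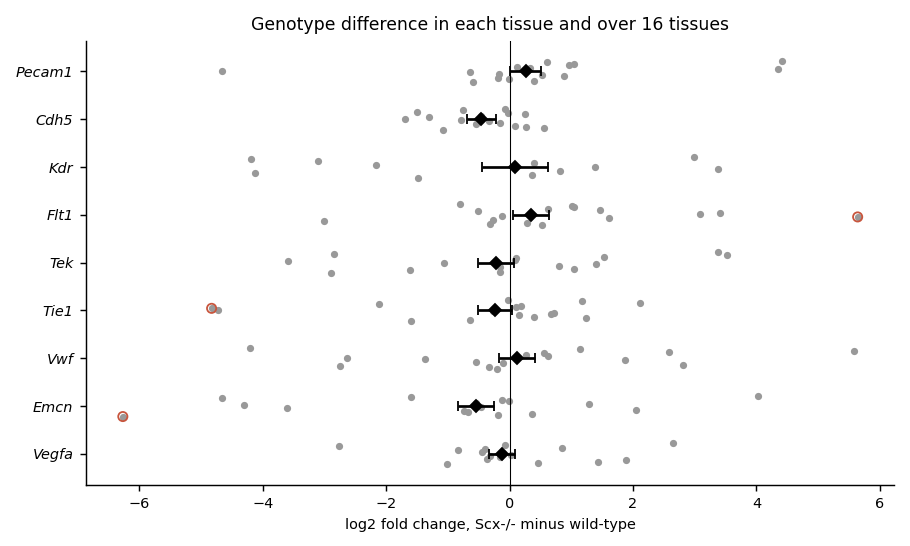
Log2 fold change of each detected member, Scx-/- minus wild-type, in each tissue (grey points) and over all 16 tissues (black diamond with its SE). Red rings mark the 3 pairs past the study's thresholds by edgeR, Flt1 in liver, Tie1 in hippocampus and Emcn in vascular samples. The estimates over all tissues lie between -0.55 for Emcn and 0.35 for Flt1.

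The rest of the VEGF and Tie pathway likewise gave 0 calls over all tissues among 7 and 5 genes tested. Flt4, the lymphatic VEGF receptor, stood at 0.83 (SE 0.39, adjusted p = 0.565) and Nrp1 at -0.34 (SE 0.18, adjusted p = 0.638). Among the further endothelial genes, 0 of 30 were called over all tissues and 0 of 438 pairs within tissues, with a median log2 difference of -0.03. Notch genes, lymphatic genes, mural genes and hypoxia targets also had 0 calls. Over all lists of vessel and other cell types, 167 genes in 2132 pairs, 2 pairs passed within a tissue. That is 0.0938%, near the background of all pairs, and rectum and liver had the most calls of all genes, 63 and 59. Car4, a carbonic anhydrase of lung capillaries and colon epithelium, was lower in Scx-/- rectum at 22.7 against 517 CPM (log2 -4.18, SE 0.93, adjusted p = 0.00281). It was at 405, 746 and 402 CPM in the wild-type rectum libraries and at 12.7, 4.33 and 51.0 CPM in the Scx-/- ones, which did not overlap. Car4 is also 1 of the 6 genes that checked the rectum label, whose summed level was 5757, 7192 and 6410 CPM in wild-type replicates 1 to 3 and 254, 3506 and 5429 CPM in Scx-/- replicates 1 to 3. Scx-/- replicate 1 thus stood apart, with 20 counts over the 6 genes, and the part of the lower marker sums in the Car4 difference was not tested. Slco1a4, a transporter of brain endothelium and hepatocytes, was higher in Scx-/- liver at 289 against 72.5 CPM (log2 2.11, SE 0.45, adjusted p = 0.00121).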

How the data were processed

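The deposited table holds raw counts, whole numbers per gene symbol for 96 libraries. Per the labels and the study's methods, the authors aligned with Bowtie2 (default settings, mm10) and obtained gene counts through HTSeq. For both tools the version, and likewise the annotation, strand setting and use of molecular identifiers, is not given in the sources used here. The paper's discussion calls the libraries 3′-enriched, while the series text describes a Smart-seq2 base. Groups came from the sample labels, and all columns were mapped.

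CPM used library totals, and correlations used log2(mean CPM + 1). Tests used edgeR 4.0.16 in R 4.3.3 (TMM factors, glmQLFit with robust estimation, Benjamini-Hochberg adjustment), after removal of genes at 0 in all libraries of a fit. The interaction fit used genes passing filterByExpr. SE is the absolute log2 change divided by the square root of F. DESeq2 1.42.0, RLE scaling, library totals, filterByExpr, a replicate block and left-out libraries were alternatives. Scripts were tested on simulated data. Intervals from a count of 0 cover counting error only and use 3 counts.

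All 10 members were to be named, with up to 2 called genes of each other list and the most alike genes. Members and lists were chosen with earlier results of these data known.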

Additional observations from a re-analysis of the deposited data

How the results depend on the processing

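The number of member and tissue pairs at an adjusted p under 0.05, the number called over all tissues and the number whose difference varied with tissue were 0 under all alternatives run for each. A member that a filter removed, or that DESeq2 gave no adjusted p, could not be called in that run. The number of pairs at the study's thresholds was 3. With filterByExpr it was 0, but the 3 pairs did not pass that filter and were not tested there. It moved to 1 with the replicate block, 6 with DESeq2 and, in an alternative chosen after seeing the data, 6 without libraries under 100000 counts. It ranged from 1 to 5 when 1 replicate of 1 genotype was left out. The number of members high in lung was 7, ranged from 2 to 6 without 1 replicate of every tissue, and was 7 or 8 otherwise. The log2 difference of Vegfa in bone ranged from -4.21 to -2.20 when 1 replicate was left out, was -2.99 with the replicate block and missed an adjusted p under 0.05 in every run. Vegfa did not pass filterByExpr in bone. Over all tissues, uncalled log2 differences changed sign when 1 replicate of every tissue was left out, with ranges of -0.307 to 0.564 for Pecam1, -0.0255 to 0.349 for Kdr, -0.0856 to 0.287 for Vwf and -0.561 to 0.0835 for Vegfa. The sign held for Cdh5 (-0.693 to -0.145), Emcn (-0.988 to -0.177) and Flt1 (0.0803 to 0.963), whose sizes moved. Kdr also turned to -0.213 with DESeq2, and Vwf to -0.0659 with the replicate block and -0.0791 without libraries under 100000 counts. The cause of these changes was not tested.

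Equal replicate numbers did not pair libraries: 0 of 48 correlations of their deviations across genotypes exceeded 0.1, so the block has no basis in the labels. Under TMM the median log2 difference of all genes was 1.47 in adipose and -1.63 in intestine libraries, and it was not subtracted from the differences given. Adipose libraries held 345862 counts in wild-type and 1271099 in Scx-/- samples in all, and intestine libraries 608173 and 111469. The part of depth in these medians was not tested. Depth limits Kdr most, with 188 counts in all,.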
